A study of Bos taurus with 46 samples.

Results

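The miRNAs described here are those of the imprinted Dlk1-Dio3 cluster in the plasma of heifers. They were taken by name: every bovine row called bta-miR-N whose number N, leaving aside letter and arm, is one of 42 numbers that belong to this cluster. This gave 52 of the 870 miRNA names measured, for 39 of the 42 numbers, and miR-337, miR-668 and miR-889 were not analysed here. Single members were thus chosen by name, while the cluster as a whole was selected on earlier results of these libraries, namely the levels and fold changes of its members, so the values below describe it and are no independent evidence about it.

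Small RNA was sequenced from EDTA plasma of Holstein-Friesian heifers in the second year of life, which had all received the same oestrus synchronisation (a progesterone insert, buserelin and cloprostenol). Of these, 11 heifers were inseminated, carried a pregnancy seen by ultrasound and gave blood on Day 16 (P16) and Day 24 (P24). Another 8 heifers were sham-inseminated and were bled in the cycle at oestrus (NP0, Day 0), 8 days later (NP8) and 16 days later (NP16), and NP stands for the 3 libraries of such a heifer combined. The P16 library of heifer 28, in which 33.1% of mapped reads were miRNA, had been left out by the study and is left out below unless named, which leaves 10 P16 heifers and 45 libraries in all. These held 651408 to 5440381 miRNA reads, or 52.5 to 80.1% of the reads mapped, and no library was identical to another. Levels are in reads per 1000000 mapped reads (RPM), a scale on which 3 reads of a library are worth 0.403 to 2.66 RPM. The plasma had been freed of cells by centrifugation, and in such samples a release from fewer cells of a type cannot be told apart from a release of less miRNA per cell.

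The Dlk1-Dio3 domain is one of the imprinted regions of placental mammals, in which the protein genes DLK1, RTL1 and DIO3 are expressed from the chromosome inherited from the father and the non-coding RNAs, its miRNAs among them, from the one inherited from the mother. The non-coding transcripts run in one direction through MEG3 and a series of downstream RNAs, and the miRNAs are cut from them. In mouse and human these miRNAs are best known from embryo, placenta, brain and skeletal muscle, and most adult tissues hold little of them. Several lie opposite RTL1, a gene needed for the placenta in mouse, and are fully complementary to its transcript.

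On the UMD 3.1 build used for the deposited tables, all 52 names lay on chromosome 21 between 65852880 and 66043621, a span of 190.742 kb. Of them, 51 were on the plus strand and 1, miR-409b (66042162 to 66042182), on the minus strand. They formed a first part of 8 names over 43.177 kb, with miR-493 at its start and miR-370 at its end, and after a gap of 104.695 kb a second part of 44 names over 42.87 kb, which is called the miR-379/miR-410 part after miRNAs near its ends. In the RefSeq annotation of the newer ARS-UCD2.0 assembly, used here for the order of genes only, all 52 matched a gene of the same number between DLK1 and DIO3. There, 5 of them (miR-431, miR-433, miR-127, miR-432 and miR-136) lay within RTL1.

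**Figure D1:**
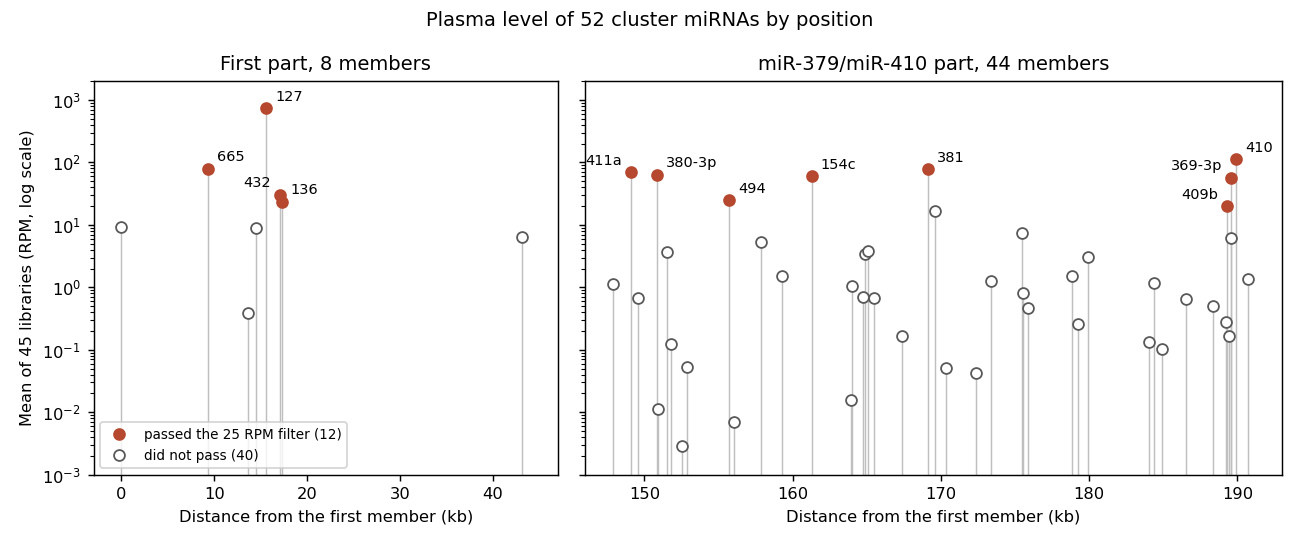
Mean level of the 52 cluster miRNAs over 45 libraries (RPM, log axis) against the distance from the first member in kb, with the first part on the left and the miR-379/miR-410 part on the right. Filled points are the 12 members that passed the filter of 25 RPM and open points the 40 that did not. miR-127 stands highest at a mean of 727 RPM, and names of high and low level lie side by side in both parts.

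All 52 names had at least 1 read. To be tested, a name needed 25 RPM or more in 25% or more of the libraries in 1 group or more, which 214 of 870 names did, among them 12 members: miR-665, miR-127, miR-432 and miR-136 of the first part, and miR-411a, miR-380-3p, miR-494, miR-154c, miR-381, miR-409b, miR-369-3p and miR-410 of the miR-379/miR-410 part. Of these, 10 passed in every group. miR-136 passed in NP0, P16 and P24 and miR-409b in NP0 alone, so that miR-409b was tested only because of the group in which it was highest. The other 40 members were under this limit, with 8 at a largest group mean of 5 to under 25 RPM, 10 at 1 to under 5 RPM and 22 under 1 RPM. The 12 members carried 93.8% of the RPM of the cluster, and 25 of the 52 names had a read in every library.

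miR-127 alone made up 50.6% of the RPM of the cluster and ranked 72nd of all names, with a mean of 727 RPM over the 45 libraries. It lies opposite RTL1 (65868487 to 65868508), whose transcript it can cut in mouse. It ran from 448 RPM (lowest) over 669 (median) to 888 (highest) in P16, and from 422 over 614 to 1515 in P24. In NP0 it ran from 598 over 718 to 1565 RPM, in NP8 from 489 over 706 to 813, and in NP16 from 487.5 over 677 to 802. The medians thus lay close together and all 5 groups overlapped, while single libraries reached far above the rest: heifers 16, 18 and 22 in NP0 and heifers 17 and 24 in P24 were the only ones at 1004 RPM or more.

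miR-432 (65869939 to 65869961) and miR-136 (65870126 to 65870148) also lie opposite RTL1, 164 bases apart. miR-432 averaged 30.04 ± 9.87 RPM in P16 (SD, n = 10) and 31.2 ± 9.94 in P24 (n = 11). Its mean was 37.2 ± 7.27 RPM in NP0, 25.8 ± 5.09 in NP8 and 28.1 ± 4.84 in NP16 (n = 8 each). The 5 groups overlapped, as they did for miR-136, which ran from 8.86 over 16.3 to 37.9 RPM in P16 and from 7.48 over 24.0 to 44.98 in P24. In NP0 miR-136 ran from 22.9 over 33.5 to 60.4 RPM, in NP8 from 10.4 over 20.8 to 28.5 and in NP16 from 12.2 over 17.1 to 31.2. Its lowest NP0 library thus lay above 7 of the 8 NP8 libraries and 6 of the 8 NP16 libraries. The remaining 2 names within RTL1 were scarce: miR-433 had group means of 8.29 to 9.06 RPM and miR-431, which restrains the satellite-cell factor PAX7 in mouse muscle, averaged 0.390 RPM.

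Before RTL1 along the cluster, miR-665 (65862179 to 65862198) had close group means. It ran from 46.5 over 75.4 to 123 RPM in P16 and from 54.4 over 69.0 to 123 in P24, against 69.7 over 80.7 to 123 in NP0, 52.8 over 75.3 to 93.8 in NP8 and 65.5 over 77.3 to 98.8 in NP16. Its group means of 76.5 to 84.5 RPM were all within 1 SD of each other. At the ends of the first part, miR-493 had its largest group mean in P24 (11.0 ± 4.46 RPM, SD, n = 11) and miR-370 in NP0 (8.94 ± 2.52 RPM, n = 8).

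In the miR-379/miR-410 part, miR-410 (66042784 to 66042804) was the most abundant name, with 7.93% of the RPM of the cluster. It ran from 73.8 over 106 to 145 RPM in P16 and from 70.3 over 123.9 to 155.1 in P24. In NP0 it ran from 100.3 over 123 to 199 RPM, in NP8 from 78.7 over 117 to 143 and in NP16 from 88.9 over 108 to 132. Except for heifer 22 in NP0, at 199 RPM, every library lay within the same range of 70.3 to 155.1 RPM whatever its group.

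miR-381 (66021990 to 66022011) ran from 46.5 over 60.3 to 102 RPM in P16 and from 38.8 over 73.9 to 175 in P24. In NP0 it ran from 67.1 over 103 to 163 RPM, in NP8 from 43.7 over 65.8 to 103 and in NP16 from 48.5 over 65.8 to 103. Its NP0 median was therefore at the level of the highest NP8 and NP16 libraries, although the groups overlapped. miR-411a (66001979 to 66002000), near the start of the miR-379/miR-410 part, ran from 42.2 over 62.0 to 94.5 RPM in P16, from 40.6 over 70.1 to 142.5 in P24, from 59.4 over 74.3 to 159 in NP0, from 41.6 over 58.5 to 82.0 in NP8 and from 52.9 over 68.0 to 96.1 in NP16. As for miR-127, the highest NP0 library was that of heifer 16 and the highest P24 library that of heifer 17.

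**Figure D2:**
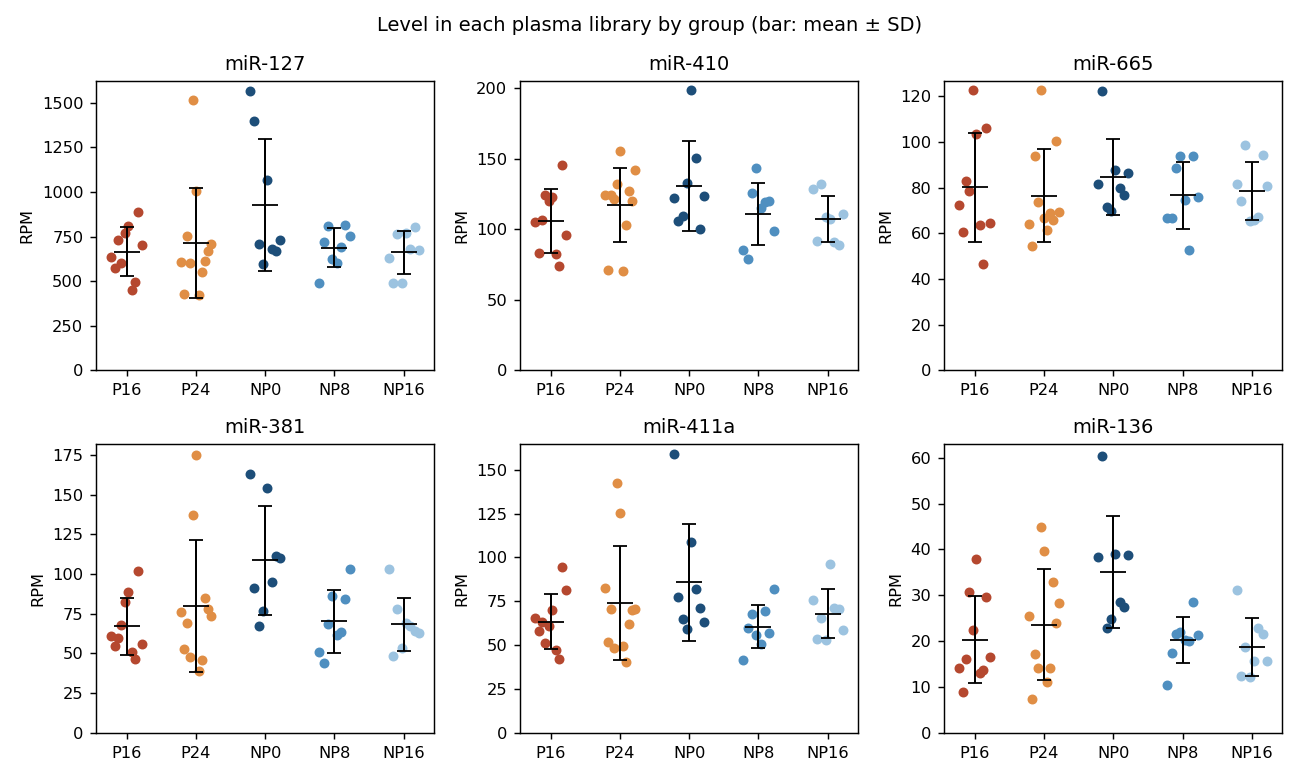
Level (RPM, linear axes from 0) of 6 cluster miRNAs in each plasma library, by group, with the mean and SD of the group as a bar (n = 10 in P16, 11 in P24 and 8 in each of NP0, NP8 and NP16). All groups overlap in each panel. The highest points belong to few heifers, such as heifer 16 in NP0 at 1565 RPM of miR-127 and heifer 17 in P24 at 1515 RPM.

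Of the other tested members of the miR-379/miR-410 part, miR-380-3p averaged 62.2 ± 14.1 RPM in P16, 65.1 ± 19.3 in P24, 80.2 ± 31.0 in NP0, 53.2 ± 3.92 in NP8 and 58.3 ± 14.5 in NP16. miR-154c averaged 59.4 ± 19.01 RPM in P16, 59.0 ± 18.4 in P24, 79.7 ± 19.01 in NP0, 52.8 ± 12.1 in NP8 and 54.2 ± 10.0 in NP16. miR-369-3p averaged 55.2 ± 19.3 RPM in P16, 53.95 ± 15.6 in P24, 70.5 ± 17.1 in NP0, 51.99 ± 11.3 in NP8 and 53.8 ± 12.2 in NP16 (SD, n as above). All 3 had their largest group mean in NP0 and their smallest in NP8, with overlapping libraries. miR-494 was alone among the 12 in having its largest mean in pregnancy, at 26.4 ± 10.8 RPM in P24 and 25.8 ± 10.0 in P16, against 26.1 ± 8.22 in NP0, 22.97 ± 7.17 in NP8 and 21.4 ± 7.55 in NP16, differences that were well within the SD. miR-409b was the lowest of the 12, with group means of 17.8 to 25.7 RPM, and in NP0 it ran from 18.2 over 24.6 to 42.2 RPM.

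Neighbours along the miR-379/miR-410 part differed greatly in level. The 3' arm of miR-369 exceeded the 5' arm in 45 of 45 libraries, by 9.28 times in the means (56.8 and 6.12 RPM). Of miR-411c the 5' arm was the more abundant one, by 9.19 times (7.32 and 0.796 RPM). Within families that share a number, miR-411a exceeded miR-411c-5p 9.60-fold, miR-154c exceeded miR-154b 52.4-fold and miR-487b exceeded miR-487a 35.8-fold in the means. miR-409b, on the minus strand 9 bases past miR-409a, exceeded it 71.0-fold. Since 1 mismatch was allowed when reads were assigned, how reads were split between copies of the miR-411, miR-376, miR-154, miR-487 and miR-329 families is uncertain.

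Below the filter, miR-487b was nearest to the limit, with a largest group mean of 21.3 RPM in NP0, while miR-409b stood just inside it at 25.7 RPM. The others at a largest group mean of 5 RPM or more were miR-493 (11.0), miR-433 (9.06), miR-370 (8.94), miR-411c-5p (8.12), miR-543 (7.58), miR-369-5p (6.66) and miR-376b (5.44 RPM). The miR-376 family, whose members are known substrates of A-to-I editing in human and mouse, was low throughout: miR-376b averaged 3.796 RPM and miR-376e 1.07 RPM over 45 libraries. miR-134, studied in rodent neurons for its effect on dendritic spines, averaged 0.260 RPM. miR-379, which gives that stretch its name, averaged 1.14 RPM, beside 114 RPM of miR-410. At the bottom, miR-411b had 3 reads in all libraries, miR-376c 2, and miR-329b and miR-1193 1 each, which is too few to compare groups.

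Summed, the 52 names were a small share of plasma miRNA. The sum was 0.137 to 0.288% of the miRNA reads of a library in P16 (median 0.199%) and 0.129 to 0.361% in P24 (median 0.196%). It was 0.173 to 0.497% in NP0 (median 0.228%), 0.155 to 0.224% in NP8 (median 0.189%) and 0.129 to 0.216% in NP16 (median 0.200%). Heifer 16 in NP0 was highest of all at 0.497%, and without miR-127 it was still highest of its group at 0.199%. The highest P16 library was that of heifer 31 and the highest P24 library that of heifer 17. Of the 12 members, 11 had their largest group mean in NP0, as had 70 of the 214 names tested (32.7%). miR-409b is among the 11 by selection, since it passed the filter through NP0 alone.

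The first question of the design was whether Day 16 of pregnancy differs from Day 16 of the cycle. With edgeR's quasi-likelihood test on the counts, 0 of 12 members passed an FDR limit of 0.1 between P16 and NP16 (0.0% of the 214 names did), and 0 had an unadjusted p under 0.05, where 3.27% of all names were lower and 3.74% higher at that p. The members had log2 fold changes of -0.22 (miR-409b) to 0.18 (miR-494), with standard errors of 0.11 to 0.22 and a median of -0.09, beside a median of 0.02 over all names. Of the members, 9 were negative, beside 48.6% of all names. With library totals in place of TMM scaling 2 members were, with a median of 0.12, and that scaling placed the median of all names at 0.18. For miR-127 the log2 fold change was -0.09 (SE 0.11), for miR-136 0.00 (SE 0.22). miR-411a, at -0.20 (SE 0.14), had the smallest adjusted p of the members (0.763 in edgeR). The left-out P16 library of heifer 28 had 491 RPM of miR-127, 40.8 RPM of miR-410 and 9.39 RPM of miR-369-3p, the last 2 below every other P16 library. With it, 0 members were called and the median was -0.05. DESeq2, limma and exact permutation tests called 0 members as well, and a p above the limit does not show that the levels were equal.

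The average over the cycle was the second measure of the non-pregnant state. Between P16 and NP, edgeR called 0 of 12 members at an FDR of 0.1, while 0.935% of the 214 names were called, and 0 members had an unadjusted p under 0.05, where 4.67% of all names were lower and 2.34% higher. The median log2 fold change was -0.09 over members and 0.01 over all names, with 9 members negative (6 with library totals). Of all names, 47.2% were negative. The 9 include miR-409b, which was tested only through its NP0 values, and NP includes NP0. miR-381 had the smallest p, at a log2 fold change of -0.25 (SE 0.14, adjusted p 0.820 in edgeR), with 46.5 over 60.3 to 102 RPM in P16 against 61.2 over 80.9 to 106 in NP. miR-494 had the highest value, 0.20 (SE 0.20). NP includes the Day 0 libraries, in which miR-381 was highest, and the P16 heifers' own Day 0 libraries were not analysed here.

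Between P24 and NP, edgeR called 0 of 12 members (0.0% of the 214 names), and 0 were at an unadjusted p under 0.05, where 2.34% of all names were lower and 0.935% higher. The median log2 fold change was -0.08 over members and 0.02 over all names, and 8 members were negative (3 with library totals, median 0.03). Of all names, 48.1% were negative. The smallest p belonged to miR-409b, with 13.3 over 16.5 to 24.4 RPM in P24 against 17.0 over 20.7 to 28.9 in NP, a log2 fold change of -0.29 (SE 0.17, adjusted p 0.871 in edgeR). Since miR-409b passed the filter through NP0 alone and NP includes NP0, its lower value here is no independent result. miR-127 had a value of -0.12 (SE 0.17) and miR-410 of -0.01 (SE 0.12). Both comparisons with NP use the same 8 non-pregnant heifers.

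From Day 16 to Day 24 of pregnancy, when the conceptus attaches to the uterus, the members lay on both sides of 0. Between P24 and P16, 5 of the 12 had negative log2 fold changes and 7 positive ones, of -0.07 (miR-665) to 0.18 (miR-381), and edgeR called 0 of them (0.0% of all names) with 0 at an unadjusted p under 0.05, where 0.0% of all names were lower and 1.4% higher. Of all names, 44.9% were negative. The smallest p was that of miR-410, at 0.12 (SE 0.12, adjusted p 0.999 in edgeR). Over the 10 heifers with both libraries, miR-127 was higher on Day 24 in 5 and lower in 5, and the sum of all members was higher in 6. DESeq2, limma and exact permutation tests called 0 members here and in both comparisons with NP. Single heifers moved in opposite directions: miR-127 was 1515 RPM in P24 and 767 RPM in P16 of heifer 17, and 666 RPM in P24 and 888 RPM in P16 of heifer 31.

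**Figure D3:**
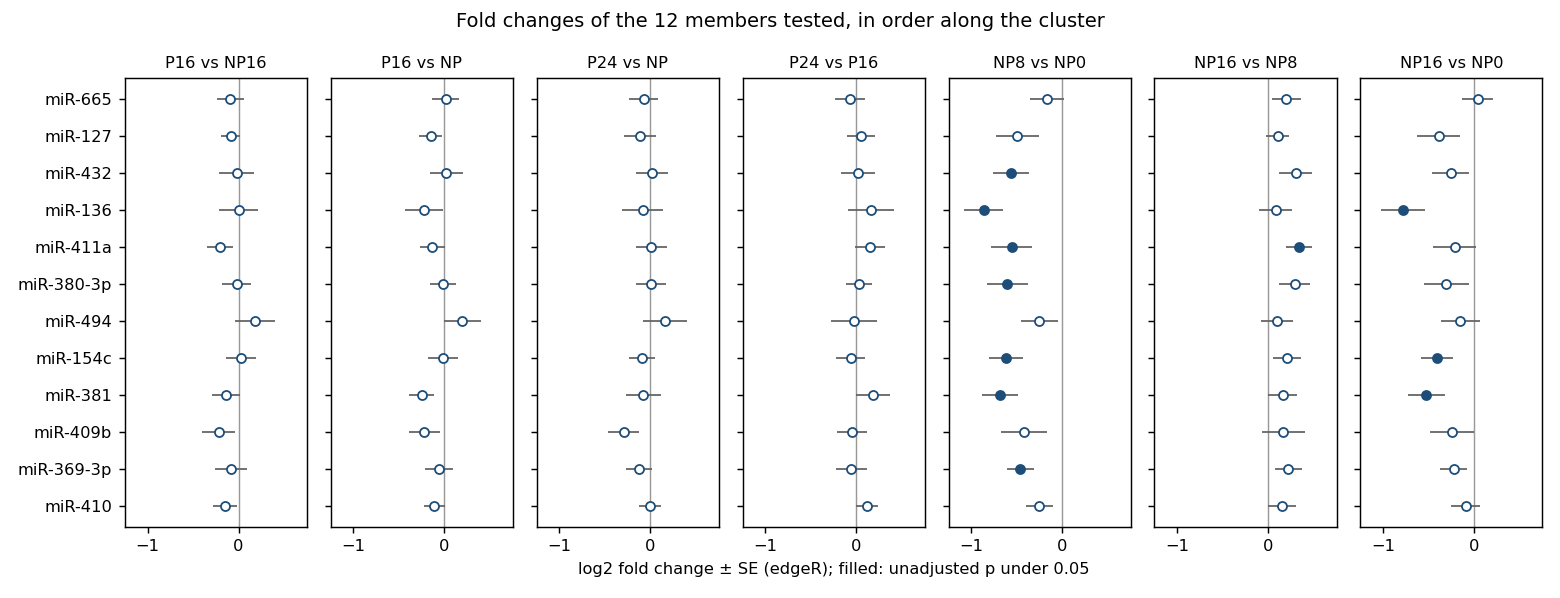
log2 fold changes (edgeR, with standard errors) of the 12 members tested, listed in order along the cluster, in 7 comparisons. Filled points have an unadjusted p under 0.05 and none passes an FDR of 0.1. In NP8 against NP0 all 12 lie left of 0, with miR-136 farthest at -0.86. Of these, miR-409b passed the filter through NP0 alone. In the 4 comparisons with a pregnant group the points scatter about 0.

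Within the cycle, Day 8, when the corpus luteum is active, was compared with Day 0, the day of oestrus. Between NP8 and NP0 all 12 had negative log2 fold changes, of -0.17 (miR-665) to -0.86 (miR-136), with a median of -0.52 beside 0.02 over all names. Of all names, 44.9% were negative. All 12 members were negative under every scaling tried. They include miR-409b, which was tested only through its NP0 values, so its sign here is no independent result. None passed the FDR limit in edgeR (0.0% of the 214 names did), and 7 had an unadjusted p under 0.05 and were lower, a class that held 8.41% of all names, while 0 members were among the 0.467% of names that were higher. These 7 were miR-432, miR-136, miR-411a, miR-380-3p, miR-154c, miR-381 and miR-369-3p, from both parts of the cluster. The same 7 had such a p with the heifer as a block in edgeR (7.01% of all names were lower at that p), while the exact permutation test paired by heifer gave 5 (6.54% of all names), without miR-411a (p = 0.117) and miR-380-3p (p = 0.0703). In the unpaired fit they are 7 of the 18 names in that class, a description of the set and not a test, since it was taken up with such results known and its members vary together.

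miR-136 ranked first of all 214 names in this comparison, at a log2 fold change of -0.86 (SE 0.21, adjusted p 0.156 in edgeR). It was lower on Day 8 in 7 of 8 heifers. Heifer 18 had 17.5 RPM in NP8 and 60.4 RPM in NP0, and heifer 34, the exception, had 28.5 RPM in NP8 and 27.4 RPM in NP0. Its call depended on the processing: DESeq2 gave an adjusted p of 0.0278 and called it alone (0.467% of all names), and without the NP0 library of heifer 21 edgeR gave 0.0466 for it and called 4 members (miR-432, miR-136, miR-154c and miR-381), the only calls among all names (1.87%). limma called 0 members. In the exact permutation test on log2(RPM + 1), miR-136 had a two-sided p of 0.00155 without and 0.0156 with pairing by heifer (adjusted over all names 0.241 and 0.456).

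The log2 fold changes of miR-381 (-0.68, SE 0.20) and miR-154c (-0.62, SE 0.19) both came with an adjusted p of 0.282 in edgeR, and each miRNA was lower on Day 8 in 6 of 8 heifers. miR-432, at -0.57 (SE 0.20), was lower in 8 of 8 heifers, with 18.4 over 24.3 to 33.1 RPM in NP8 against 24.3 over 36.5 to 46.8 in NP0. Of the 12 members it was the only one lower on Day 8 in every heifer. miR-127 had a log2 fold change of -0.49 (SE 0.24), yet in RPM it was lower on Day 8 in 3 of 8 heifers and higher in 5. Those 3 were heifers 16, 18 and 22, with 489, 719 and 604 RPM in NP8 against 1565, 1397 and 1064 RPM in NP0. The NP0 libraries of heifers 16 and 18 had the lowest miRNA shares of mapped reads in NP0, 52.5% and 57.8%. They also had the fewest miRNA reads of NP0, 1299679 and 2029531. Heifer 22 had a share of 74.5% in NP0. A part of library quality in these values was not tested. In the other 5 heifers miR-127 stayed between 598 and 813 RPM on both days.

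**Figure D4:**
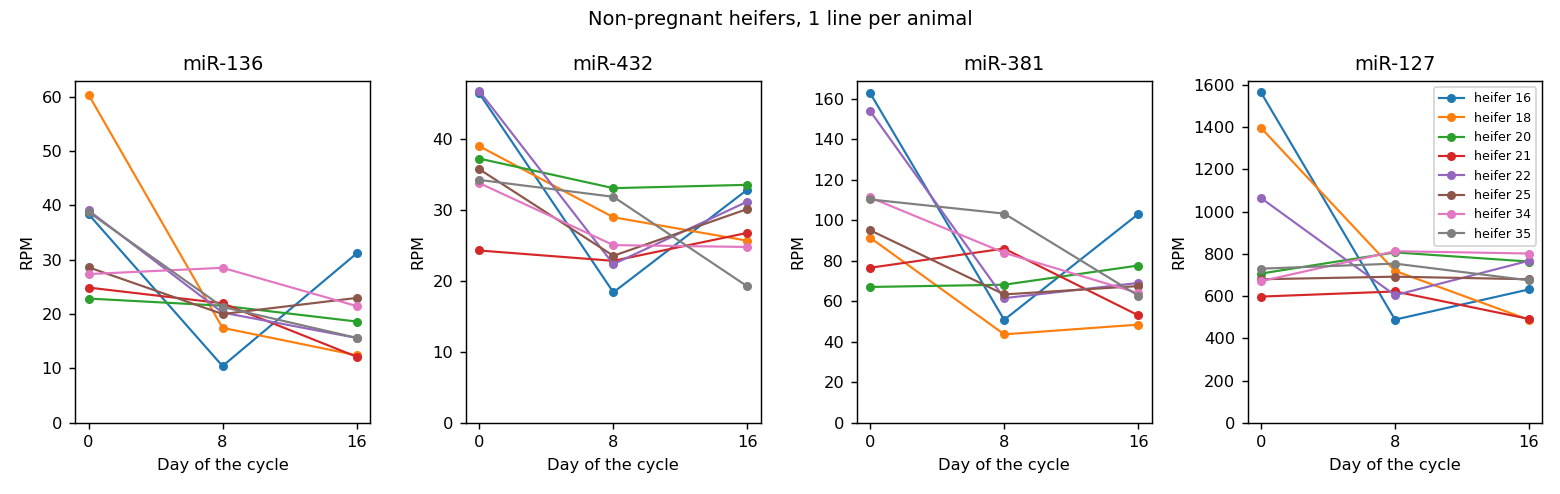
Level (RPM, linear axes from 0) of miR-136, miR-432, miR-381 and miR-127 in the 8 non-pregnant heifers by day of the cycle, with 1 line for each heifer. miR-432 is lower on Day 8 than on Day 0 in 8 of 8 heifers, whereas miR-127 is lower in 3 of 8, which are the heifers with the highest Day 0 values.

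The 40 members under the filter were fitted without it, beside all names with any read. Their median log2 fold change between NP8 and NP0 was -0.27, with 29 negative and 5 at an unadjusted p under 0.05 (7.99% of all names), beside a median of 0.00 over all names. miR-487b, the nearest to the filter, had -0.67 (SE 0.26), with 10.96 over 13.3 to 19.65 RPM in NP8 against 11.6 over 21.4 to 35.2 in NP0, so that the groups overlapped. In this fit too 0 members passed the FDR limit (0.0% of all names).

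Between NP16 and NP8 all 12 members had positive log2 fold changes, of 0.08 (miR-136) to 0.34 (miR-411a), with a median of 0.18 beside 0.02 over all names, but with library totals 6 were negative and the median was 0.01, with that of all names at -0.15. With TMM, 44.4% of all names were negative. In the RPM themselves miR-136 was lower on Day 16 in 6 of 8 heifers and miR-127 in 6 of 8. edgeR called 0 members (0.0% of all names), and 1, miR-411a (SE 0.14), had an unadjusted p under 0.05 and was higher, in a class of 1.87% of all names (0.467% were lower). Its adjusted p was 0.889 in edgeR, and 4 of 8 heifers had more of it on Day 16. DESeq2, limma and exact permutation tests called 0 members.

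Between NP16 and NP0, 11 of the 12 members had negative log2 fold changes, with a median of -0.25 beside 0.02 over all names (with library totals -0.49 beside -0.21). Of all names, 46.7% were negative. The members vary together, so their signs are not independent of each other. miR-409b, tested only through its NP0 values, is again among the negative members. edgeR called 0 of them (0.0% of all names), and 3, namely miR-136, miR-381 and miR-154c, had an unadjusted p under 0.05 and were lower, a class of 3.27% of all names (2.34% were higher). miR-136 had a log2 fold change of -0.78 (SE 0.24, adjusted p 0.478 in edgeR and 0.0901 in DESeq2, which called it and 1.4% of all names), and it was lower on Day 16 in 8 of 8 heifers. miR-381 had -0.52 (SE 0.21) and was lower in 7 of 8, and miR-154c had -0.41 (SE 0.18) and was lower in 7 of 8. miR-665 was the exception with 0.04 (SE 0.17). limma and the exact permutation tests called 0 members. Within the cycle the permutation test paired by heifer has only 256 sign patterns, so its p cannot fall below 0.0078. In that test miR-136 had this p, with an adjusted p of 0.239, and could have passed only if many names shared it. The 0 calls of the paired test within the cycle are thus no evidence of equal levels. The comparisons of NP8 and of NP16 with Day 0 share the NP0 libraries, so the same 8 libraries stand behind the lower values of both.

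Blood-cell and tissue miRNAs were summed in the same libraries. In edgeR, the names of these lists that passed the FDR limit were miR-133a (log2 fold change -2.81, SE 0.53, adjusted p 0.00672) and miR-208b (-1.11, SE 0.24, adjusted p 0.0163) of the muscle list, both lower in P16 than in NP, and none passed in the other 6 comparisons. Against NP16 their adjusted p in edgeR was 0.349 and 0.638. NP includes Day 0, where miR-208b averaged 26.4 RPM, against 9.56 in NP16. Single libraries reached up to 2915 RPM of miR-133a. In the study's own test miR-133a was lower too but did not pass its FDR limit, and qPCR did not detect it. The erythrocyte miRNAs miR-451, miR-486 and miR-144, all 3 detected in each library, summed to 81596 over 113717 to 287027 RPM in P16 and 89101 over 144327 to 166506 in P24. The sum was 34943 over 144437 to 344565 RPM in NP0, 63207 over 122534 to 277496 in NP8 and 95919 over 216962 to 379577 in NP16. These reads are part of the divisor of RPM. Heifer 16 in NP0, the library with the largest share of cluster miRNAs, had the lowest miR-486 of NP0 at 31911 RPM. The muscle list (8 names, 3 of which passed the filter, and with miR-1, miR-133c, miR-206 and miR-208a at 0 in some libraries) summed to 46.9 over 73.0 to 190.97 RPM in P16 and 43.7 over 66.8 to 1219 in P24. Its sum was 127.94 over 298.7 to 2455 RPM in NP0, 41.7 over 116 to 2993 in NP8 and 40.8 over 132 to 1213 in NP16, so that the range of the sum in NP0 lay higher at its lower end than in any other group. Among the other lists, the medians of the summed platelet miRNAs (3 numbers, 4 names) were 33056 RPM in P16, 43598 in P24, 31547 in NP0, 43040 in NP8 and 32249 in NP16, and those of liver miR-122 were 22.4, 27.8, 37.7, 38.9 and 38.995 RPM in the same order of groups. The leukocyte sums (5 names) had medians of 24002 to 32138 RPM and the brain sums (6 names, 1 of which passed) of 2307 to 2889 RPM. Nearly all of the brain sum was miR-128 (mean 2452 RPM in NP0), so it says little of the scarce names. Of these, miR-9-5p averaged 4.96 RPM in NP0 and 1.29 to 1.57 in the other groups. For miR-124 the means were 1.13 RPM in NP0 and 0.02 to 0.27 elsewhere. miR-128, miR-9-3p and both arms of miR-219 had their largest means in groups other than NP0. The part of blood-cell and muscle RNA in the Day 0 values of the cluster was not tested.

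The 12 members varied together from library to library. After removal of the group means, log2(RPM + 1) of a pair of members had a median Pearson's r of 0.58 (Spearman's rho 0.59) over 66 pairs and 45 libraries, beside 0.22 over all pairs of names tested and 0.22 between members and other names. Values of r ran from -0.03 (miR-380-3p with miR-409b) to 0.82 (miR-127 with miR-411a, and miR-369-3p with miR-410). The first of these top pairs joins the 2 parts of the cluster across the gap, and the second holds names 310 bases apart. Libraries of 1 heifer are not independent, and all names of a library share its divisor. With miRNA reads in place of mapped reads as the divisor, the median was 0.62.

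**Figure D5:**
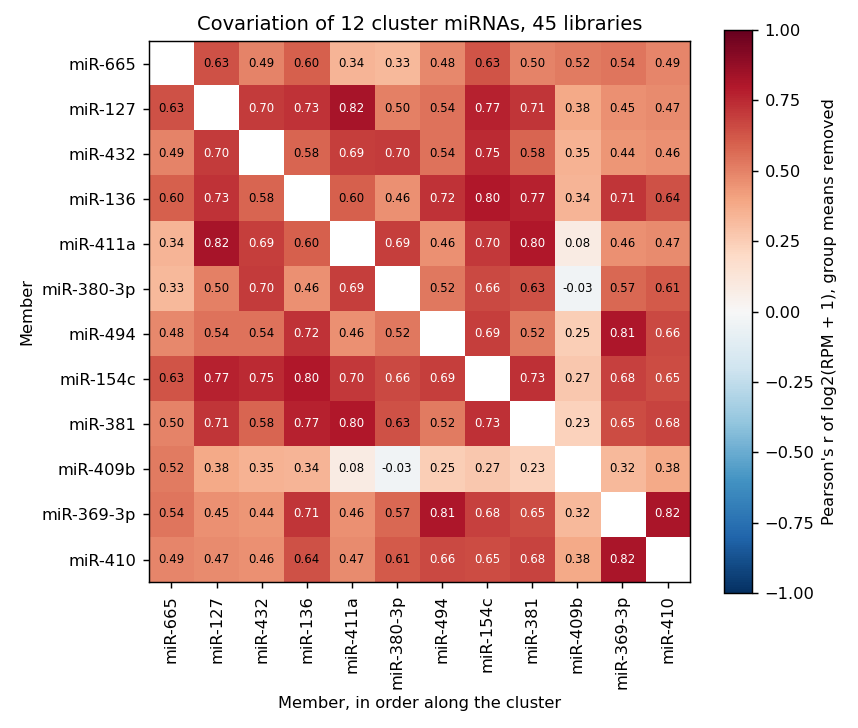
Pearson's r of log2(RPM + 1) between the 12 members, group means removed, over 45 libraries, in order along the cluster. Colours run from blue (-1) to red (1). miR-409b, the only member on the minus strand, stands apart with a median r of 0.32, whereas miR-154c has the highest median, 0.69.

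Within single groups, the median r was 0.71 in P16 and 0.70 in P24, and 0.40 in NP0, 0.52 in NP8 and 0.42 in NP16. Over all pairs of names tested it was 0.23 in P16, 0.23 in P24, 0.19 in NP0, 0.37 in NP8 and 0.25 in NP16. The difference between groups was not tested. Of the members, miR-154c (median r with the other members 0.69), miR-381 (0.65), miR-136 (0.64) and miR-127 (0.63) were closest to the rest. miR-665 (0.50) and miR-409b (0.32) were the loosest.

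Among names outside the cluster, those most alike to the mean log2(RPM + 1) of the 12 members were miR-193a-3p (Pearson's r 0.85 over 45 libraries), miR-497 (0.85), miR-224 (0.79), miR-199c (0.78) and miR-450a (0.78), which lie on other chromosomes or scaffolds. The lowest values were those of miR-484 (-0.49), miR-1306 (-0.48), miR-92a (-0.46), miR-197 (-0.45) and miR-486 (-0.43). An r with a mean of 12 names is not comparable with the r of single pairs of members given above. Between NP8 and NP0 the 5 names most alike had log2 fold changes of -0.46, -0.36, -0.34, -0.48 and -0.19 in the order given, with adjusted p of 0.487 to 0.684 in edgeR. They were picked for their likeness over the same libraries, and 44.9% of all 214 names had a negative value in this comparison.

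Other miRNAs of imprinted regions were looked at for comparison. Within or beside the same domain, 5 further names on chromosome 21 (miR-1197, miR-3956, miR-3957 and both arms of miR-1247, which lies next to DIO3) had group means of at most 2.40 RPM. Of other imprinted domains, miR-296-3p of the GNAS domain had group means of 750 to 917 RPM and miR-335, within MEST, of 37.1 to 45.8 RPM. Between NP8 and NP0, the log2 fold change was 0.26 (SE 0.16) for miR-296-3p and -0.29 (SE 0.19) for miR-335, both with an adjusted p of 0.615 in edgeR. These 2 thus lay on opposite sides of 0, and neither passed the limit.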

How the data were processed

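The authors mapped trimmed single-end reads with sRNAtoolbox to the bovine genome (UMD 3.1) and to mature miRNAs of miRBase, bovine first and human for homologues, with 1 mismatch allowed. They deposited raw counts per miRNA name and RPM values (counts per 1000000 mapped reads), with 870 names in 46 libraries. All value columns were matched to samples by their names. Libraries per group were as in the text, from the labels, whose numbers were taken as separate animals.

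The 12 members past the filter were tested with all 214 names that passed it, using edgeR 4.0.16 in R 4.3.3 (TMM, glmQLFit, glmQLFTest, Benjamini-Hochberg over all names, FDR limit 0.1), on counts summed over the 3 libraries of a heifer for NP. Alternatives were DESeq2 1.42.0, limma 3.58.1 on log2(RPM + 1) and log2(RPM + 0.1), library totals, no filter, a limit of 100.0 RPM, an FDR limit of 0.05, each library (for NP, each heifer) left out, NP libraries taken singly, the left-out library kept and a block by heifer. Exact permutation tests (two-sided) and the scale of miRNA reads were added after the data were seen. The fits were tested on simulated data. Python 3.11.15 with numpy 2.4.6, pandas 2.3.3, scipy 1.17.1 and matplotlib 3.10.9 did the rest. Each member that passed is named, each with 5 RPM or more is given with its range or largest mean, and outside names are the 5 most alike. Members and lists were chosen with earlier results of these data known. Mature sequences and seeds were not analysed here.

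As the study describes, the same heifers gave the NP0, NP8 and NP16 libraries, and P16 and P24. The number that labels share was taken as the heifer, so a number pairs libraries. As a check of this pairing, deviations from the group means correlated between the libraries of a heifer with a median r of 0.23 (NP8 and NP0), 0.44 (NP16 and NP8), 0.39 (NP16 and NP0) and 0.43 (P24 and P16). The best match was the heifer's own library in 2 of 8 heifers for NP8 and NP0, where the check was thus weak. It was so in 7 of 8 for NP16 and NP8, 6 of 8 for NP16 and NP0, and 7 of 10 for P24 and P16.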

Additional observations from a re-analysis of the deposited data

Results flagged for a closer look

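In 84 tests of a group for a library that stood far from the others (Dixon's ratio, at a level where chance flags about 1 in 20 groups), 4 values stood out, about that share. Of these, 3 belonged to 1 library, that of heifer 18 in NP0: miR-665 at 122.53 RPM (next 87.55), miR-136 at 60.41 RPM (next 39.09) and miR-409b at 42.17 RPM (next 29.03). The fourth was miR-543 in NP16 of heifer 21, at 10.92 RPM (next 5.72). For each name 4 groups were tested and not all, so the share does not cover every group. No value of P24 was flagged, but with groups left untested this does not show that P24 held no such library. There, miR-493 was 23.25 RPM in heifer 17 (next 12.25).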

How the results depend on the processing

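Of 200 counts of members past the FDR limit under an alternative, 197 were 0, as in edgeR. The exceptions were 1 member (miR-136) between NP8 and NP0 with DESeq2, 1 (miR-136) between NP16 and NP0 with DESeq2, and a range of 0 to 4 between NP8 and NP0 when each library was left out (4 without NP0 of heifer 21). The cause of these exceptions was not tested. The counts at the stricter FDR limit of 0.05 had to be 0, since 0 members passed 0.1 in edgeR, so they are no check. Many of the other counts came from leaving out a single library or heifer. Such fits share most of their data, so the 200 counts are not independent of each other. With the heifer as a block, 0 members were called between NP8 and NP0 (median log2 fold change -0.47, smallest adjusted p 0.3496), NP16 and NP8, NP16 and NP0, and P24 and P16, so the block changed no call. Leaving out libraries moved the median of the members between -0.61 and -0.44 for NP8 and NP0, -0.35 and -0.21 for NP16 and NP0, 0.14 and 0.27 for NP16 and NP8, -0.17 and -0.04 for P16 and NP16, -0.15 and -0.04 for P16 and NP, and -0.11 and -0.01 for P24 and NP. For P24 and P16 the sign turned, with -0.04 without P24 of heifer 17 and 0.09 without P16 of heifer 31 (0.02 with all libraries). With library totals in place of TMM the median turned to 0.12 for P16 and NP16 (TMM -0.09) and to 0.03 for P24 and NP (TMM -0.08), and it was 0.01 for NP16 and NP8 (TMM 0.18). Levels under 3 reads, 0.403 to 2.66 RPM by library, limit what can be said of the 22 members under 1 RPM. Counting error only is covered by such limits.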
